A study of Mus musculus with 6 samples.

Results

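The Eph receptors, ephrins, semaphorins, plexins and neuropilins were examined in whole mouse embryos at embryonic day 8.5. A gene was included when a probe set carried exactly 1 gene symbol of these families, and where a gene had several such probe sets the one with the highest average signal across the 6 arrays was read. This gave 52 genes of the 18193 measured: 9 EphA and 4 EphB receptors, 5 ephrin-A and 3 ephrin-B ligands, 20 semaphorins, 9 plexins and 2 neuropilins. The control group had the genotype Fz2+/+; Fz7-/- and the other group Fz2-/-; Fz7-/-, so that both lacked Fz7 (gene symbol Fzd7) and differed in Fz2 (Fzd2), a second Frizzled receptor for Wnt ligands. They are called single and double knockout here. Each group had 3 arrays, all from a C57BL6/129 mixed background and labelled as mixed gender. Embryos wild type for both genes were not analysed here. The labels do not say how many embryos made up a sample or whether replicates came from separate litters. The p-values therefore weigh a group difference only against the variation among these samples, part of which may be technical. That variation may not stand for variation between litters. The comparison asks which transcripts differ when Fzd2 is removed from embryos that already lack Fzd7.

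Eph receptors are receptor tyrosine kinases that bind ephrins on neighbouring cells. Ephrin-A proteins are held in the membrane by a lipid anchor and mostly bind EphA receptors, while ephrin-B proteins span the membrane and mostly bind EphB receptors, and both sides of the contact can signal. Semaphorins are secreted or membrane-bound cues that act through plexins, and most class 3 semaphorins need neuropilins as co-receptors. In the embryo at this stage these systems are known for keeping cell groups apart at the boundaries of somites and hindbrain segments, for shaping vessels, and for steering neural crest cells and, later, axons.

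Values are log2 signals after robust multi-array averaging (RMA). Array medians lay between 5.79 and 5.82. Fzd2 read 9.86, 9.99 and 10.01 in the single knockout and 7.30, 7.69 and 7.63 in the double knockout, so it fell by 2.42 (SE 0.11, limma adjusted p = 0.00567). That call did not hold with averaged probe sets (limma adjusted p = 0.0691), with double knockout replicate 3 omitted (0.0759) or with single knockout replicate 1, 2 or 3 omitted (0.0831, 0.120 and 0.109), though the difference stayed between -2.49 and -2.30 in every fit. Double knockout replicate 1 stood apart: its correlation with the other arrays across genes was 0.986 to 0.990, against 0.997 to 0.998 among the rest. The mean of the markers was lower in it for 6 embryonic tissues and cell types, and 40 of the 44 markers had their lowest value there. The share of all genes at their lowest or highest value in it was not counted. The mean log2 signal of neural plate markers was 7.27 in this array and 8.32 to 8.71 in the other 5, and endothelial markers read 7.17 against 8.08 to 8.40. Neural crest markers read 7.45 against 8.42 to 8.72 and somite markers 6.21 against 6.85 to 7.43, although 2 of the 8 somite markers, Tbx6 and Msgn1, were highest in it. Cardiac markers read 8.38 against 10.47 to 10.90 and primitive erythroid markers 5.28 against 7.85 to 10.85. Double knockout replicate 3 held the lowest of those erythroid values. The means of epiblast, visceral endoderm and placental markers were higher in replicate 1, at 6.76 against 5.22 to 5.85, 11.80 against 8.69 to 9.22 and 7.17 against 4.89 to 5.16. Of these lists 4 of 6, 8 of 8 and 3 of 5 markers were highest there, while the epiblast marker Tdgf1 was lowest. The decidual mean was 7.90 against 7.15 to 7.62, but without Prl8a2 it was 7.09 against 6.95 to 7.12. Double knockout replicates 2 and 3 also lay apart from the single knockout for some markers. Neural plate markers read 8.32 to 8.38 in them against 8.43 to 8.71 in the single knockout. Somite markers read 6.85 in both against 6.97 to 7.43, and epiblast markers 5.74 to 5.85 against 5.22 to 5.43. In the other lists these ranges overlapped. Fewer cells of a type and less RNA per cell cannot be told apart in whole embryos. The part of these tissue differences in the results was not tested. Values without this array are given beside those with it.

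**Figure D1:**
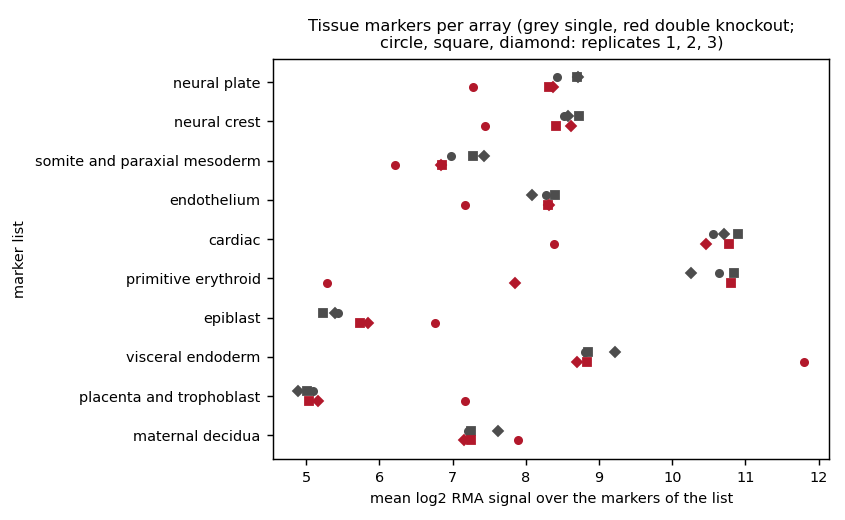
Mean log2 RMA signal (x axis) of 10 lists of tissue markers (y axis) in each array, grey for single and red for double knockout, with a circle, square and diamond for replicates 1, 2 and 3. Double knockout replicate 1 (red circles) lies outside the other 5 arrays in every list, at 11.80 against 8.69 to 9.22 for visceral endoderm. The decidual mean lies outside only with Prl8a2.

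No guidance gene passed the test. Of the 52, 0 had a limma adjusted p under 0.05 in either direction; over all 18193 genes 0% were higher and 0.0055% lower, the latter being Fzd2 alone. An unadjusted p under 0.05 was found for 3 guidance genes, Epha2, Sema3d and Sema3e, or 5.77%, against 4.96% of all genes. The 3 single and 3 double knockout values did not overlap for 6 guidance genes, or 11.5%, against 11.4% of all genes. Epha2 and Sema3e were the 2 on the higher side (3.85%, against 4.85% of all genes), and Efna2, Efna4, Sema3d and Sema4c the 4 on the lower side (7.69%, against 6.6%). These shares were near the background. The smallest limma adjusted p among the guidance genes was 0.872.

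The group means were lower in the double knockout for 32 guidance genes and higher for 20, with a median difference of -0.06 on the log2 scale, where 53.8% of all genes were lower and their median was -0.01. Without double knockout replicate 1 the split was 28 lower (53.8%, against 53.3% of all genes) to 24 higher, the median was -0.01, and the 12 genes that changed side then differed by -0.05 to 0.11. Then 0 passed the test by limma, 2 (Sema3d and Sema3e) had an unadjusted p under 0.05, against 6.67% of all genes, and 10 had groups that did not overlap, against 22.3% of all genes. A difference over 0.5 in size was seen for 4 guidance genes (7.69%, against 2.04% of all genes), and for 0 without double knockout replicate 1 (0.654% of all genes). For 35 of 52 genes the unadjusted 95% interval of the difference lay within 0.5 of 0, and for 46 it lay within 1. The median SE was 0.11.

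**Figure D2:**
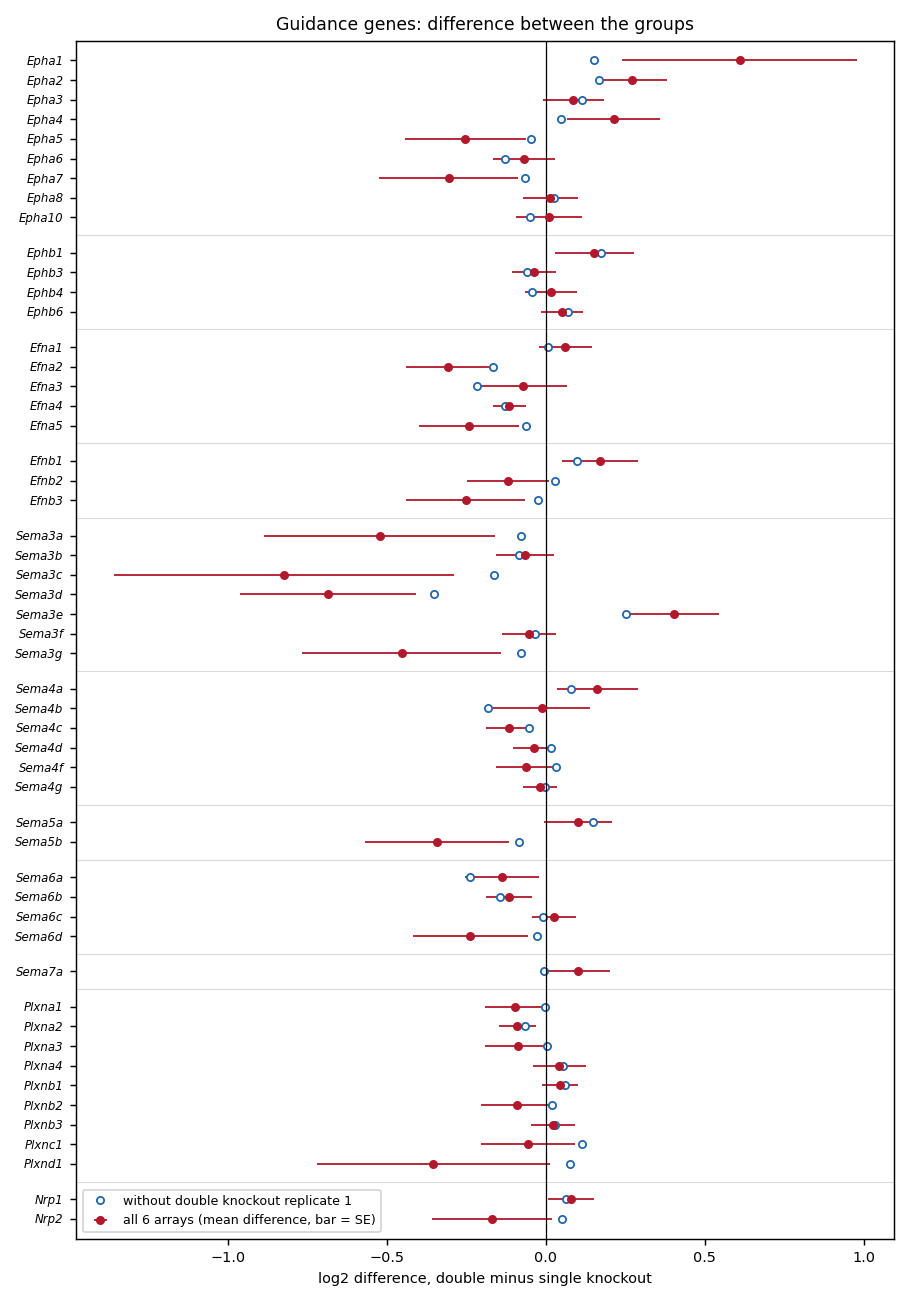
Log2 difference, double minus single knockout (x axis), of the 52 guidance genes (y axis, by family). Filled points use all 6 arrays with the SE as bar, and open points leave out double knockout replicate 1. The filled points farthest from 0 are Sema3c at -0.83, Sema3d at -0.69, Epha1 at 0.61 and Sema3a at -0.52, and no open point lies farther than 0.5 from 0.

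Most of the spread came from 1 array. In double knockout replicate 1, 6 of 52 guidance genes (11.5%) were over 1 log2 unit away from the average of the other 5, against 2.63% of all genes, and 16 (30.8%) lay over 0.5, against 8.2%. In each of double knockout replicates 2 and 3, 0 guidance genes lay over 0.5 from the other 5 arrays, against 1.01% of all genes. For single knockout replicates 1, 2 and 3 it was 0, 4 and 1 guidance genes, with no count over all genes. For each array other than double knockout replicate 1, the average of the other 5 includes that outlying array. The 6 genes over 1 log2 unit away in double knockout replicate 1 were Epha1, on the higher side, and Sema3a, Sema3c, Sema3d, Sema3g and Plxnd1, on the lower side. This array held the lowest of the 6 values for 23 guidance genes and the highest for 13. The shares of all genes lowest or highest in it were not counted, so these 2 counts cannot set guidance genes apart. These counts describe 1 array and carry no test.

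**Figure D3:**
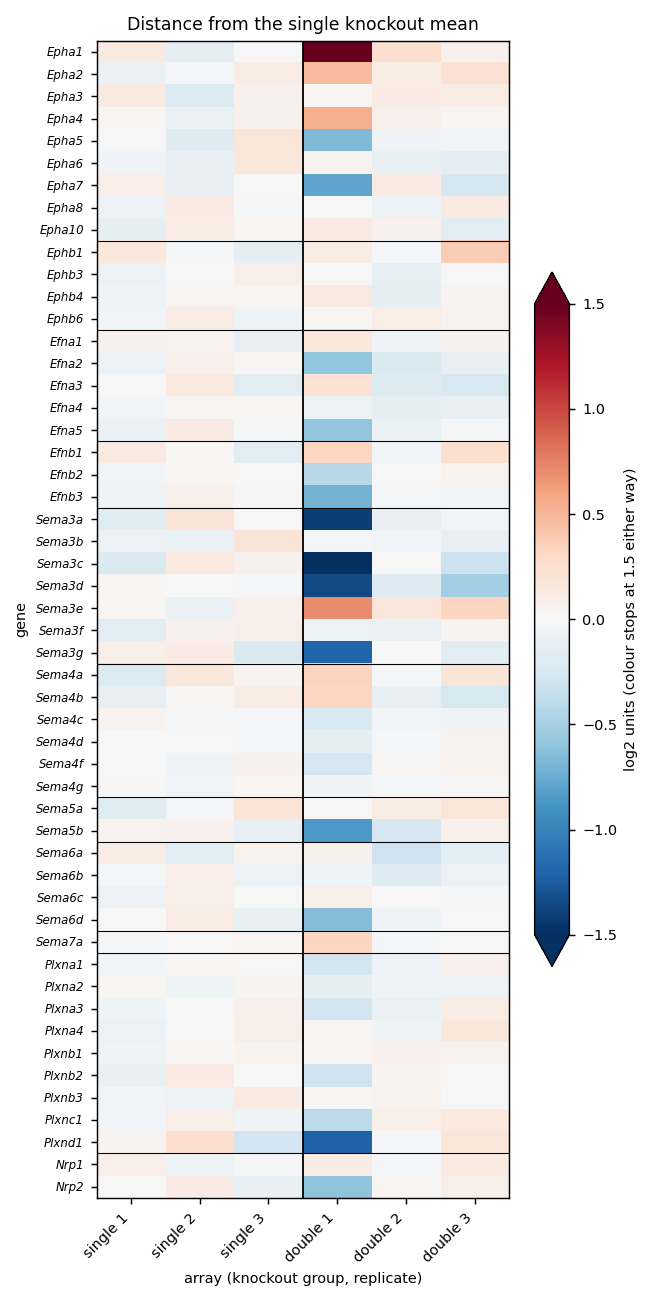
Distance of each array (columns, single knockout replicates 1 to 3, then double knockout replicates 1 to 3) from the single knockout mean, in log2 units, for the 52 guidance genes (rows, families split by lines). Red is higher and blue lower, and colours stop at 1.5. The column of double knockout replicate 1 holds the deep colours, such as Sema3a, Sema3c and Sema3d in blue and Epha1 in red.

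The EphA receptors were split 6 higher to 3 lower, with a median of 0.01 (0.03 without double knockout replicate 1, 5 higher to 4 lower). Values are listed from replicate 1 to replicate 3. Epha1, an epithelial receptor, read 6.93, 6.65 and 6.80 in the single knockout and 8.32, 7.03 and 6.86 in the double knockout. Only replicate 1 stood clear of the single knockout, and the groups overlapped. The difference was 0.61 (SE 0.37, limma adjusted p = 0.872), or 0.15 (SE 0.10) without that array. Its dimmer probe sets differed by 0.20 and 0.12.

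Epha2, a receptor of epithelia and of the node and early notochord, read 7.32, 7.40 and 7.52 in the single knockout and 7.89, 7.53 and 7.64 in the double knockout. All 3 double knockout values were above all single knockout values, though by under 0.01 at the closest point. The difference was 0.27 (SE 0.11, unadjusted p = 0.0434, limma adjusted p = 0.872). Without double knockout replicate 1 it was 0.17 (SE 0.08, unadjusted p = 0.0816 by limma). Epha2 had 1 probe set.

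Epha4, which sets boundaries between hindbrain segments and between somites, read 9.08, 8.96 and 9.12 in the single knockout and 9.60, 9.13 and 9.07 in the double knockout. Its difference was 0.21 (SE 0.15), or 0.05 without double knockout replicate 1, and its 4 dimmer probe sets also lay higher. Epha5 and Epha7, neural EphA receptors that were picked after their values were seen, were lowest in the array where neural plate markers were dimmest. Epha4 was highest in that same array, and a link to tissue content was not tested. Epha7 read 9.22, 9.01 and 9.12 in the single knockout and 8.33, 9.24 and 8.86 in the double knockout. Its difference was -0.31 (SE 0.22), or -0.07 without replicate 1. Epha5 differed by -0.25 (SE 0.19), or -0.05 without that array. The remaining EphA genes, Epha3, Epha6, Epha8 and Epha10, had means over all arrays below the median gene at 7.10. RMA compresses differences near background. Epha6 had the lowest mean, with values between 3.48 and 3.79, and differed by -0.07, or -0.13 without replicate 1.

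The EphB receptors varied little. The 4 genes differed by -0.04 to 0.15 with a median of 0.03 (0.01 without double knockout replicate 1). Ephb1 read 7.89, 7.72 and 7.61 in the single knockout and 7.85, 7.71 and 8.12 in the double knockout. Its high value came from double knockout replicate 3, and the difference was 0.15 (SE 0.13), or 0.17 without double knockout replicate 1. Ephb3 had a difference of -0.04 (SE 0.07), and -0.06 with double knockout replicate 1 left out. It lay on the other side of 0 without single knockout replicate 3 or double knockout replicate 2 (0.01 and 0.0025). Ephb6, which lacks kinase activity, differed by 0.05 (SE 0.07), or 0.07 without that replicate. Ephb4, the receptor of venous endothelium, the partner of the arterial ligand ephrin-B2, was picked after its values were seen. It read 8.40, 8.495 and 8.49 in the single knockout and 8.60, 8.33 and 8.502 in the double knockout. The difference was 0.02 (95% interval -0.18 to 0.22), or -0.05 without double knockout replicate 1.

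**Figure D4:**
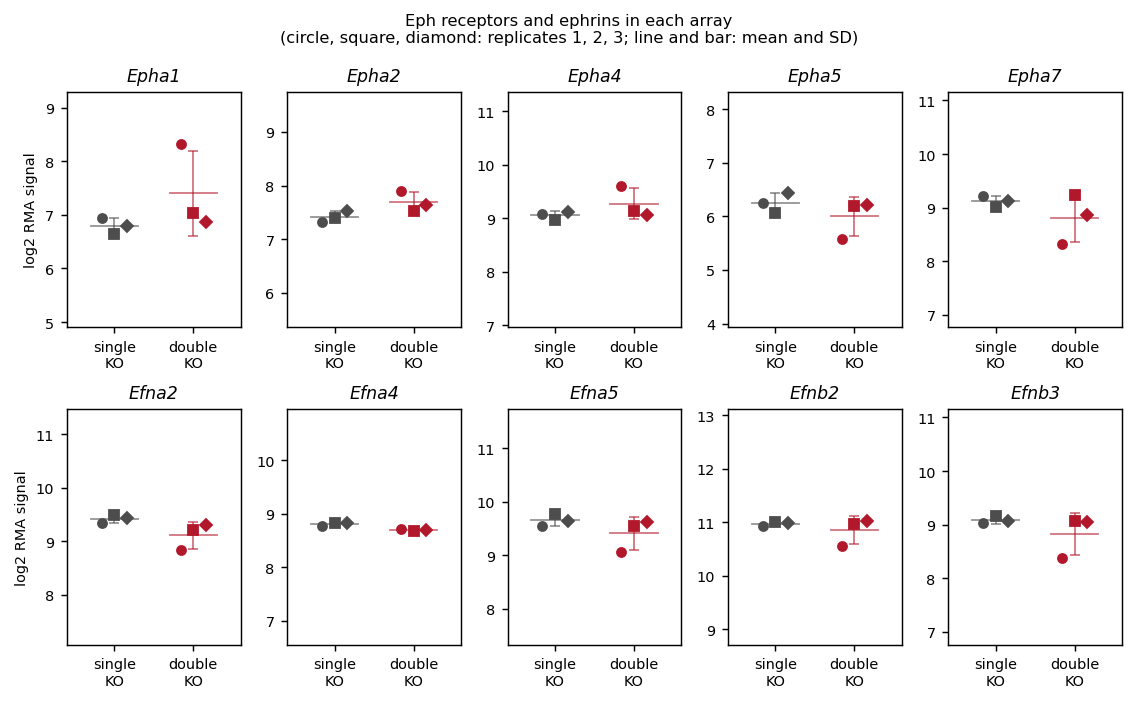
Log2 RMA signal (y axis, a window of equal height in each panel) of 5 EphA receptors and 5 ephrins in single and double knockout embryos (x axis). Circle, square and diamond are replicates 1, 2 and 3, and lines and bars are the mean and SD of 3 arrays. The double knockout circle lies away from the square and diamond for most of these genes, as in Epha1 at 8.32 against 7.03 and 6.86, while the Efna4 values lie close together in each group.

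Of the ephrin-A ligands, 4 of 5 were lower, with a median of -0.12 (-0.13 without double knockout replicate 1, again 4 of 5). The median thus kept its size without that array. Efna2 read 9.34, 9.50 and 9.44 in the single knockout and 8.83, 9.21 and 9.31 in the double knockout. The groups did not overlap. The difference was -0.31 (SE 0.13, unadjusted p = 0.0508, limma adjusted p = 0.872), and -0.17 (SE 0.07) without replicate 1. The dimmer Efna2 probe set differed by -0.22.

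Efna4 read 8.77, 8.83 and 8.83 in the single knockout and 8.72, 8.67 and 8.69 in the double knockout. Here the 3 double knockout arrays lay together just below the controls, and replicate 1 was the highest of them. The difference was -0.12 (SE 0.05, unadjusted p = 0.0627, limma adjusted p = 0.872), or -0.13 (SE 0.06) without replicate 1, so it was small but did not rest on that array. Efna5, a graded guidance cue in the brain, read 9.55, 9.77 and 9.64 in the single knockout and 9.06, 9.55 and 9.63 in the double knockout. It differed by -0.24 (SE 0.16), or -0.06 without replicate 1. Efna3 differed by -0.07, and by -0.22 without replicate 1, where the groups did not overlap. Its dimmer probe set lay on the other side, at 0.06. There, double knockout replicates 2 and 3 read 6.01 and 6.10, within the single knockout values of 5.98 to 6.18.

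The ephrin-B ligands were 1 higher and 2 lower, with a median of -0.12, or 0.03 without double knockout replicate 1. Efnb1, mutated in craniofrontonasal syndrome in humans, read 9.13, 9.01 and 8.84 in the single knockout and 9.31, 8.94 and 9.23 in the double knockout. The groups overlapped and the difference was 0.17 (SE 0.12), or 0.10 without replicate 1. Efnb2, a marker of arterial endothelium that is also made in somites, read 10.94, 11.00 and 10.98 in the single knockout and 10.56, 10.97 and 11.03 in the double knockout. Apart from double knockout replicate 1 the 5 values lay within 0.1 of each other. The difference was -0.12 (SE 0.13), or 0.03 (SE 0.06) without that array. Efnb3, a ligand of the neural tube midline, read 8.38 in double knockout replicate 1 and 9.03 to 9.16 in the other 5 arrays. It differed by -0.25 (SE 0.19), or -0.03 without replicate 1.

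The class 3 semaphorins, the secreted members, had a lower median with all 6 arrays than any other of the 11 families and classes, but not without double knockout replicate 1, where ephrin-A (-0.13) and class 6 (-0.09) lay lower. Of 7, 6 were lower and 1 was higher, with a median of -0.45, and -0.08 without double knockout replicate 1, where the split was again 6 to 1. In replicate 1 their median distance from the single knockout mean was -1.20, in replicate 2 it was -0.04 and in replicate 3 it was -0.13. In the mouse reference genome 4 of them, in the order Sema3d, Sema3a, Sema3e and Sema3c, lie on chromosome 5, and their differences did not share a direction.

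Sema3d, a cue in heart, vessel and neural crest development, read 6.23, 6.22 and 6.19 in the single knockout and 4.86, 6.02 and 5.70 in the double knockout. All 3 double knockout arrays lay below the controls, which were within 0.1 of each other. The difference was -0.69 (SE 0.28, unadjusted p = 0.0450, limma adjusted p = 0.872). Without replicate 1 it was -0.35 (SE 0.10, unadjusted p = 0.0108, limma adjusted p = 0.701), and the groups still did not overlap. The other Sema3d probe set, at a mean of 3.40, differed by -0.0026.

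Sema3e, a ligand of plexin D1 that repels endothelial cells, was the class 3 gene on the higher side. It read 7.59, 7.48 and 7.66 in the single knockout and 8.28, 7.76 and 7.90 in the double knockout. Every double knockout array was above every control. The difference was 0.40 (SE 0.14, unadjusted p = 0.0251, limma adjusted p = 0.872), and 0.25 (SE 0.08, unadjusted p = 0.0192, limma adjusted p = 0.707) without replicate 1. Its 3 dimmer probe sets also lay higher, by 0.33, 0.19 and 0.32.

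Sema3d and Sema3e had the smallest unadjusted p-values of the family and differed in direction, and their promoters are shown for that reason. The RefSeq windows of 300 bases run from 250 before to 50 after the gene start on GRCm38.p6, both on the plus strand, at chr5:12382916-12383215 for Sema3d and chr5:14025026-14025325 for Sema3e. Capitals mark CTTTGA or CTTTGT on either strand, printed as the reverse complement TCAAAG or ACAAAG where the match lies on the minus strand. These are short cores of the sequence bound by TCF and LEF, the transcription factors of the Wnt pathway.
Sema3d: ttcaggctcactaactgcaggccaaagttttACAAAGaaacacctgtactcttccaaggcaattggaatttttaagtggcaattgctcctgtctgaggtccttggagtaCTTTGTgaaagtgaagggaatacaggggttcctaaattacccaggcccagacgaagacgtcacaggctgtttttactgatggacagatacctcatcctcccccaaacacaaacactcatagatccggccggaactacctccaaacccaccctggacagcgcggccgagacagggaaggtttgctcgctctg
Sema3e: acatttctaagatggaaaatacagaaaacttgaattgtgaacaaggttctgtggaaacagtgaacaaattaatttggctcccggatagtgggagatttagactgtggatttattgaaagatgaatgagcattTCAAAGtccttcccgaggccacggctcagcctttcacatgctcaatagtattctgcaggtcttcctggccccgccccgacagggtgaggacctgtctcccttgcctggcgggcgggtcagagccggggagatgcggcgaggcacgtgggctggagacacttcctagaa
The Sema3d window held 2 such matches and the Sema3e window 1. Of all promoter windows of this length in the table, 31.2% held at least 1. Counted by gene, 34.5% of all genes in the table had a window with a match. Of the 46 guidance genes with a window, 13 had a match, or 28.3%, and of the 5 class 3 semaphorins 4 had a match, or 80%. A match to 6 letters is a description of the sequence and was not measured as a binding site.

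The other class 3 genes with large differences followed double knockout replicate 1. Sema3c, needed in neural crest cells for the cardiac outflow tract, read 8.17, 8.54 and 8.44 in the single knockout and 6.23, 8.38 and 8.06 in the double knockout. It differed by -0.83 (SE 0.54, limma adjusted p = 0.872), or -0.16 (SE 0.14) without replicate 1. Sema3a, an axon repellent that binds neuropilin 1, read 8.10, 8.48 and 8.28 in the single knockout and 6.87, 8.18 and 8.24 in the double knockout. It differed by -0.52 (SE 0.36), or -0.08 without replicate 1. Sema3g read 6.04, 6.07 and 5.73 in the single knockout and 4.74, 5.95 and 5.79 in the double knockout. It differed by -0.45 (SE 0.31), or -0.08 without replicate 1. In each of these 3 genes the groups overlapped. Sema3f, read from a probe set of a type that can also bind other transcripts, differed by -0.05 (SE 0.09), or -0.03 without replicate 1. Sema3b, named after its values were seen, differed by -0.07 (SE 0.09), or -0.08 without it.

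**Figure D5:**
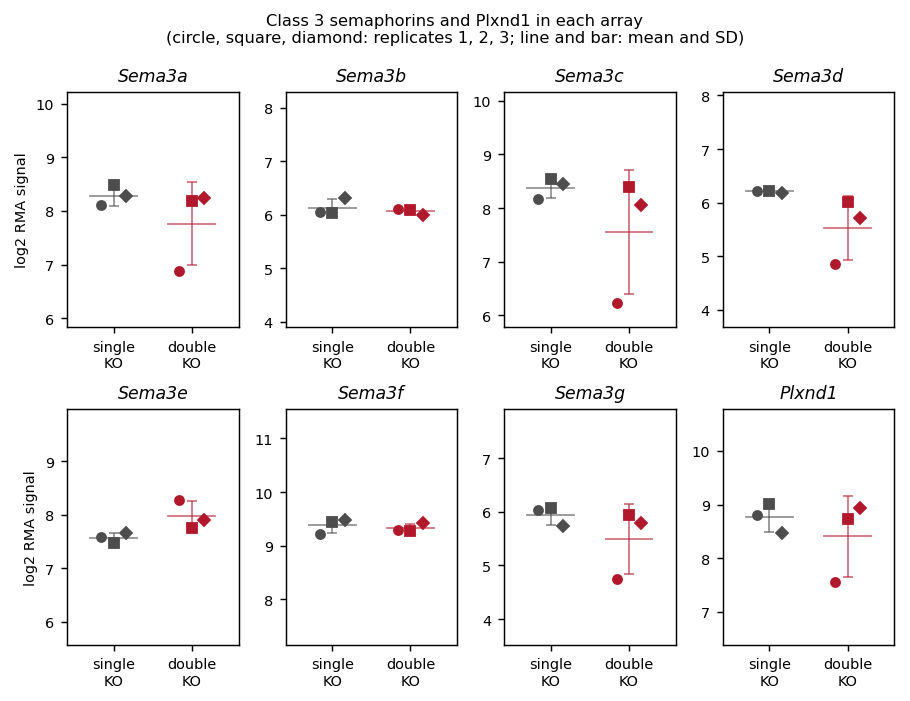
Log2 RMA signal (y axis, a window of equal height in each panel) of the 7 class 3 semaphorins and the receptor gene Plxnd1 in single and double knockout embryos (x axis). Circle, square and diamond are replicates 1, 2 and 3, and lines and bars are the mean and SD of 3 arrays. Sema3d lies below and Sema3e above the controls in all 3 double knockout arrays, whereas in Sema3a, Sema3c, Sema3g and Plxnd1 only replicate 1 lies far below.

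The membrane-bound semaphorins had smaller differences. Class 4 was lower for 5 of 6 genes with a median of -0.03, and split 3 to 3 without double knockout replicate 1. Sema4c, which acts with plexin B2 in neural tube closure, read 7.92, 7.84 and 7.84 in the single knockout and 7.62, 7.83 and 7.80 in the double knockout. The groups did not overlap, but replicates 2 and 3 lay close to the controls. The difference was -0.12 (SE 0.07, limma adjusted p = 0.872), or -0.05 without replicate 1. Sema4a differed by 0.16 (SE 0.13), or 0.08 without that array.

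In class 5, Sema5b read 7.04, 7.05 and 6.86 in the single knockout and 6.13, 6.73 and 7.06 in the double knockout. Its difference was -0.34 (SE 0.23), and leaving out double knockout replicate 1 brought it to -0.09. Sema5a differed by 0.10 (SE 0.11), or 0.15 without it. Class 6 was lower for 3 of 4 genes, with a median of -0.13 (-0.09 without replicate 1, 4 of 4). Sema6d, which acts on the developing heart through plexin A1, read 8.33 in replicate 1 and 8.88 to 9.10 in the other 5 arrays. Its difference was -0.24 (SE 0.18), or -0.03 without replicate 1. Sema6b differed by -0.12 (SE 0.07), or -0.14 without that array. Sema7a, the lipid-anchored member, differed by 0.10 (SE 0.10) and lay at -0.0076 without it.

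The plexins, the semaphorin receptors, were lower for 6 of 9 genes with a median of -0.09. Without double knockout replicate 1, 7 of 9 were higher and the median was 0.03. Plxnd1, the endothelial receptor for semaphorin 3E, was picked after its values were seen. It read 8.80, 9.01 and 8.47 in the single knockout and 7.55, 8.73 and 8.94 in the double knockout. The groups overlapped. Its low value came from replicate 1, in which endothelial markers read 7.17 against 8.08 to 8.40 elsewhere. Ephb4, the receptor of venous endothelium, had its highest value in that array, at 8.60. A link to tissue content was not tested. Plxnd1 differed by -0.35 (SE 0.37), or 0.08 (SE 0.16) without that array. Plxna2 differed by -0.09 (SE 0.06, 95% interval -0.23 to 0.05). Among the probe sets read it had the smallest unadjusted p of the family, at 0.164 by limma. Without replicate 1 it differed by -0.07, and its dimmer probe sets differed by -0.16, -0.13 and -0.07. Plxna4, picked later, differed by 0.04. Its dimmer probe set read 5.43 to 5.49 in the single and 4.85 to 5.19 in the double knockout. That is -0.40 (SE 0.10, unadjusted p = 0.0058, adjusted p = 0.939 by limma over all probe sets). Plxnb2, needed for neural tube closure, read 9.27 to 9.63 in the double knockout and 9.47 to 9.70 in the single knockout. It differed by -0.09 (SE 0.11), or 0.02 without replicate 1. Plxnb3 differed by 0.02 (SE 0.07), or 0.03 without replicate 1, and was on the other side of 0 when the probe sets of a gene were averaged (-0.01) or single knockout replicate 2 was left out (-0.02).

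The neuropilins, co-receptors for class 3 semaphorins and for vascular endothelial growth factor, differed little. Nrp1 read 10.84, 10.67 and 10.72 in the single knockout and 10.85, 10.73 and 10.88 in the double knockout, a difference of 0.08 (SE 0.07), or 0.06 without double knockout replicate 1. Nrp2 read 9.98, 10.11 and 9.87 in the single knockout and 9.38, 10.003 and 10.07 in the double knockout. It differed by -0.17 (SE 0.19), or 0.05 (SE 0.08) without replicate 1, the array with the low value.

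Several probe sets were available for 36 guidance genes, and in 20 of these (55.6%) all probe sets differed in 1 direction. The same share over all genes was not counted. Probe sets of 1 gene were read on the same arrays, so their agreement is not independent support. Sema3a, Sema3c, Sema3e, Epha1, Epha4, Epha7, Efna2 and Nrp1 were among those 20. Sema3d was too, but its dimmer probe set differed by only -0.0026. Efna3, Efnb2, Nrp2 and Plxna4 were not among them.

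Genes that work with these families were taken from 3 lists, and 0 of their members passed the test in either direction. Of 28 signalling partners of Eph receptors and ephrins, 18 were lower and 10 higher, with a median of -0.05, but without double knockout replicate 1 the split was 14 to 14 and the median -0.00019. Groups did not overlap for 2 (7.14%, against 11.4% of all genes), or 5 without that array (17.9%, against 22.3%). Adam10, the protease that cleaves ephrins, differed by -0.14 (SE 0.05), or -0.11 without that array. Rapgef1, an exchange factor for Rap1, differed by -0.17 (SE 0.07), or -0.12 without it. Of 32 partners of semaphorins, plexins and neuropilins, 23 were lower and 9 higher, with a median of -0.14, or 17 lower, 15 higher and -0.02 without that array. Groups did not overlap for 8 (25%, against 11.4%), or 9 without that array (28.1%, against 22.3%). Mical2, an actin-oxidising enzyme of the MICAL family, differed by -0.16 (SE 0.05), or -0.15 without that array. The growth factor gene Pgf, whose product binds neuropilins, differed by 0.34 (SE 0.12), or 0.37 without it. Of 24 other guidance genes (Slit, Robo, netrin, Dcc, Unc5, Rgm and Flrt genes), 14 were lower and 10 higher, with a median of -0.02, or 12 to 12 with a median of 0.00097 without that array. Groups did not overlap for 4 (16.7%, against 11.4%), and for 4 without that array (16.7%, against 22.3%). Flrt1 differed by -0.35 (SE 0.09), or -0.28 without that array, and Robo4, an endothelial receptor, by -0.20 (SE 0.08), or -0.22 without it. The 6 named genes were those with the 2 smallest unadjusted p of each list by limma, a choice that favours groups lying apart. Their groups were all apart, at a limma adjusted p of 0.872 for each, and this says nothing about the lists.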

How the data were processed

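Total RNA of whole embryos, extracted with Trizol and RNeasy per the labels' protocols, was measured on 6 single-colour Affymetrix arrays. The authors deposited a table of 45101 probe sets in log2 units, and the submitters' processing notes name RMA. No source used here gives its version. Scanner files were not analysed here. RMA corrects background, equalises array distributions and compresses differences near background, and precision is limited by how few arrays there are. Of the probe sets 34945 had a single symbol in the platform annotation, giving 18193 genes (the highest-mean probe set of each). All 52 guidance genes matched RefSeq identifiers, and the promoter sequences are from RefSeq (GRCm38.p6).

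Double and single knockout were compared with limma's lmFit and eBayes (version 3.58.1, R 4.3.3; two-sided, Benjamini-Hochberg over all 18193 genes, threshold 0.05), after a check on simulated data. Intervals are unadjusted 95% intervals of that fit. Members, gene lists and tests were chosen with earlier results of these data known. Named genes were those past the threshold, up to 4 per family with groups that do not overlap (or else the smallest p), the brightest and dimmest per family, and differences over 0.5 in size; of each partner list, the 2 smallest p. Others are said to be picked later. Alternatives were the replicate block, trend with robust moderation, leaving out dim genes, averaging or testing all probe sets, quantile normalization, median centring, array weights, a threshold of 0.1, and leaving out each array.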

Additional observations from a re-analysis of the deposited data

How the results depend on the processing

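None of the 52 guidance genes passed the limma threshold in the main analysis or in any of the 15 other settings. The setting without dim genes tested 31 of them. Their unadjusted p was under 0.05 for 3 with all arrays (5.77%, against 4.96% of all genes). In the other fits with 1 value per gene this held for 0 to 5, against 3.15% to 6.76% of all genes tested. The smallest adjusted p over the 37 named genes and these fits was 0.699, with array weights. The 1 gene called over all genes, Fzd2, was lost (0 called) when probe sets were averaged. With 1 array left out, 0 to 1 genes were called: 0 when it was a single knockout array or double knockout replicate 3. The median difference of the guidance genes, -0.06, ran from -0.079 to -0.0058 when 1 array was left out, at -0.0058 without double knockout replicate 1 and -0.020 without single knockout replicate 3.

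Of 467 differences of named genes in other settings, 451 kept their direction and 16 did not. Ephb4 reversed with array weights (-0.037) and Plxnb3 with averaged probe sets (-0.013). The other 14 came from leaving out 1 array. Without double knockout replicate 1 Efnb2, Nrp2, Plxnd1, Plxnb2, Ephb4 and Sema7a changed side. Their ranges with 1 array left out were -0.21 to 0.029, -0.30 to 0.052, -0.62 to 0.077, -0.16 to 0.019, -0.045 to 0.090 and -0.0076 to 0.17, and Ephb4 also reversed without single knockout replicate 1. The ranges for the others that reversed were -0.13 to 0.018 for Epha6, -0.082 to 0.0056 for Ephb3, -0.12 to 0.029 for Sema3b, -0.22 to 0.0093 for Efna3 and -0.017 to 0.085 for Plxnb3. The cause beyond the fewer arrays or the averaging was not tested.

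Deviations of same-numbered arrays from their group means correlated at 0.094, -0.037 and -0.13. The deviations within a group of 3 arrays depend on each other, so these values cannot show whether the replicate numbers pair the samples. With the replicate block limma called 1 gene, Fzd2, and 0 guidance genes. An unadjusted p under 0.05 was then found for 3 guidance genes, against 5.56% of all genes.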
